A study of Homo sapiens with 6 samples.

Results

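Genes of DNA replication and of the passage from G1 into S phase were examined in Cal33, an established line of human oral squamous cell carcinoma, as 39 genes listed by name. All 39 were found by symbol in the deposited table of 14136 gene entries, and all 39 passed the filter on low values with 12210 genes in all. The CES2 group was 3 libraries of Cal33 cells carrying the lentiviral vector pSin-EF2-CES2-FLAG, which expresses FLAG-tagged carboxylesterase 2, an esterase of the endoplasmic reticulum. The Vector group was 3 libraries of cells carrying the empty pSin-EF2 vector. Both groups were infected with virus packaged in the kidney-derived packaging line 293FT, and both were kept under puromycin at 0.5 ug/ml, so that the infection and the drug are shared. The labels do not say whether a group is a pool or 1 clone, nor that its 3 libraries came from separate infections or cultures, so the p-values speak only of the scatter among these 6 samples, part of which may be technical. Libraries were depleted of ribosomal RNA and strand-specific. In bulk RNA, fewer cells in S phase and less RNA per such cell cannot be told apart.

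In proliferating cells the MCM2 to MCM7 proteins are loaded on origins as a ring in G1 with the help of CDC6 and CDT1. The ring becomes an active helicase in S phase when CDC45 and the GINS complex join it. Most of these genes are transcribed under E2F factors, which are held back by RB family proteins until cyclin-dependent kinases phosphorylate those proteins, and inhibitors such as p21 act on the kinases.

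The promoter windows of members are shown because E2F words are the element that such promoters are known for. Windows of 250 bases before to 50 after the RefSeq start (GRCh38.p14) were found for 33 of the 39 members. The E2F core words TTCCCGC or TTCGCGC or TTGCCGC or TTGGCGC, on either strand and with overlapping words counted apart, occurred in at least 1 window of 29 of the 33 (87.9%), against 25.4% of 9609 tested genes with a window and 15.3% of all 27305 genes in the promoter table. A window with 2 or more words was found for 11 members (33.3%), against 3.93% of tested genes. Median GC content was 66.0% in member windows and 65.0% in windows of tested genes. The CCAAT box (CCAAT, either strand) occurred for 20 of 33 members (60.6%), against 43.4% of tested genes. The cell cycle homology word TTTGAA, typical of genes of G2 and mitosis, occurred for 1 of 33 members (3.03%), against 13.5% of tested genes. The members with a window and no E2F word were MCM10, FEN1, CCNE1 and CDC45. Each of them had CES2 2 and Vector 1 as its lowest pair of libraries, as did 34 of all 39 members. GINS1, RFC2, RFC4, PRIM1 and TK1, which had another pair lowest, each held a word, as did 29 of the 33 members. A part of these words in the levels described below was not tested. A match describes the letters only. The helicase and G1/S members with the most words on the chromosomes used here are printed 5′ to 3′ with E2F words in capitals: MCM6 at chr2:135876394-135876693 (minus strand), MCM3 at chr6:52284693-52284992 (minus strand), MCM7 at chr7:100101348-100101647 (minus strand), MCM2 at chr3:127598161-127598460 (plus strand), E2F1 at chr20:33686336-33686635 (minus strand) and E2F2 at chr1:23531184-23531483 (minus strand).
MCM6: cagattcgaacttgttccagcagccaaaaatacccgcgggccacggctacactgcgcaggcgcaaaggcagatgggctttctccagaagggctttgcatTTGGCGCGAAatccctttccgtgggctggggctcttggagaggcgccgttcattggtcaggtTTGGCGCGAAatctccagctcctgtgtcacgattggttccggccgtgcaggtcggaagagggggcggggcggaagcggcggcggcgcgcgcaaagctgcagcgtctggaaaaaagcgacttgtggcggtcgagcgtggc
MCM3: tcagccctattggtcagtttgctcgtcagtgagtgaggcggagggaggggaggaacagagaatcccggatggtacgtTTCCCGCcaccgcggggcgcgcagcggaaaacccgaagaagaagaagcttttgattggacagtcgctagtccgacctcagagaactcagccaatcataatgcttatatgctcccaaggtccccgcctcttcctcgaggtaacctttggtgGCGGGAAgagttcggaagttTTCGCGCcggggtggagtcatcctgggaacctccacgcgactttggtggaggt
MCM7: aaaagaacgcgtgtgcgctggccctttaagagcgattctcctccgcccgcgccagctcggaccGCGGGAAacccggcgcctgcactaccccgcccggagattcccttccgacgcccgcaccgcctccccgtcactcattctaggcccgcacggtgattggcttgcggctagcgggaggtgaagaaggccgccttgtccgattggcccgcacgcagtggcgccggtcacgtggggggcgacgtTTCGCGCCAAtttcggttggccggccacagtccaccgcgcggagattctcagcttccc
MCM2: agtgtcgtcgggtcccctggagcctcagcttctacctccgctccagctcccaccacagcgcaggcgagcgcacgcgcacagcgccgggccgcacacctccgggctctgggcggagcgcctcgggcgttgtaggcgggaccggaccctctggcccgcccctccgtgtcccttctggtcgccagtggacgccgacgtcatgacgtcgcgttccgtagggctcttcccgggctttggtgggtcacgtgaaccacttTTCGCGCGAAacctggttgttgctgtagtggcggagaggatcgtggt
E2F1: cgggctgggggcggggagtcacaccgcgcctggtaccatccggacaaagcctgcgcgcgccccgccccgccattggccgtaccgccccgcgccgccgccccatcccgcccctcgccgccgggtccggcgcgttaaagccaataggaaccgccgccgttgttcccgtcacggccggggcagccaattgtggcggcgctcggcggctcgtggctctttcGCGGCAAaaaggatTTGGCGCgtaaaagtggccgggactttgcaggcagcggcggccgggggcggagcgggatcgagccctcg
E2F2: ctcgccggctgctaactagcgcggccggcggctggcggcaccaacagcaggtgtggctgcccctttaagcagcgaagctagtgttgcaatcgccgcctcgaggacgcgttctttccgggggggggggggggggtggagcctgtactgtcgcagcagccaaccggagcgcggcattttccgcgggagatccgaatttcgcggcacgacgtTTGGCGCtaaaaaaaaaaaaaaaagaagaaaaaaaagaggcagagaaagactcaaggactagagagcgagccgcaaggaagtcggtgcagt
MCM6 held 4 words, in overlapping pairs, MCM3 and MCM7 held 3 each, MCM2 and E2F1 held 2 each and E2F2 held 1. For MCM7 the window with the most words is printed. Its windows at chr7:100100705-100101004 and chr7:100100480-100100779 held 2 and 0 words. The MCM7 transcript listed with the deposited values begins at 100100780, outside the printed window and inside the window with 2 words. Over all member windows, 35 of 48 words, with overlapping words counted apart, lay within 100 bases of the start. The windows reach only 250 bases before and 50 after the start, and the share for tested genes was not computed.

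Abundance was deposited as TPM, transcripts scaled to a total of 1000000 per library, so depth is unknown and a level is per transcript length. CES2 itself was at 2664, 1929 and 2294 TPM in CES2 1, 2 and 3, against 45.6, 41.9 and 44.9 TPM in Vector 1, 2 and 3, a log2 difference of 5.66 (SE 0.18) by limma with an adjusted p of 7.38e-06, and the exact two-sided permutation test gave p = 0.1, the smallest that 3 against 3 allows. It was the 1 gene of 12210 called (2 genes without CES2 3). The squamous epithelial markers were present, with 10 of 10 at 1 TPM or more in each library and summed levels of 4408 to 5914 TPM in CES2 and 4522 to 5767 TPM in Vector, although KRT14 was at 1.14 to 2.97 TPM in CES2 and 1.21 to 2.64 TPM in Vector. Of the fibroblast markers 5 of 6 have no entry in the table analysed, as have 3 of 5 leukocyte markers, and the endothelial markers PECAM1 and VWF lay between 0.128 and 1.87 TPM. Leukocyte CD14 was under 1 TPM in each library, and the other listed markers of these cells with an entry were above 1 TPM in each. Endothelial CDH5 was at 8.25 to 25.3 TPM, fibroblast COL1A1 at 3.89 to 10.5 TPM and leukocyte CD68 at 5.47 to 11.6 TPM.

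Libraries CES2 2 and Vector 1 stood apart in these genes. They were the lowest pair of the 6 libraries in 34 of 39 members (87.2%), against 20.6% of all 12210 tested genes. The lowest library was CES2 2 in 25 members, Vector 1 in 13 and CES2 3 in 1, and the highest was Vector 3 in 18, Vector 2 in 11 and CES2 3 in 10. Relative to each gene's mean over the 6 libraries on the log2(TPM + 1) scale, the members' median was 0.056, -0.43 and 0.31 in CES2 1, 2 and 3, against -0.38, 0.17 and 0.31 in Vector 1, 2 and 3. After rescaling libraries to 1 median the pair was lowest in 33 members, and after quantile normalization in 30. This description was made after the values were seen, its cause was not tested, and the labels name no batch. The Pearson correlation of log2(TPM + 1) over all tested genes was 0.978 between CES2 2 and Vector 1, higher than between any other pair of libraries.

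**Figure D1:**
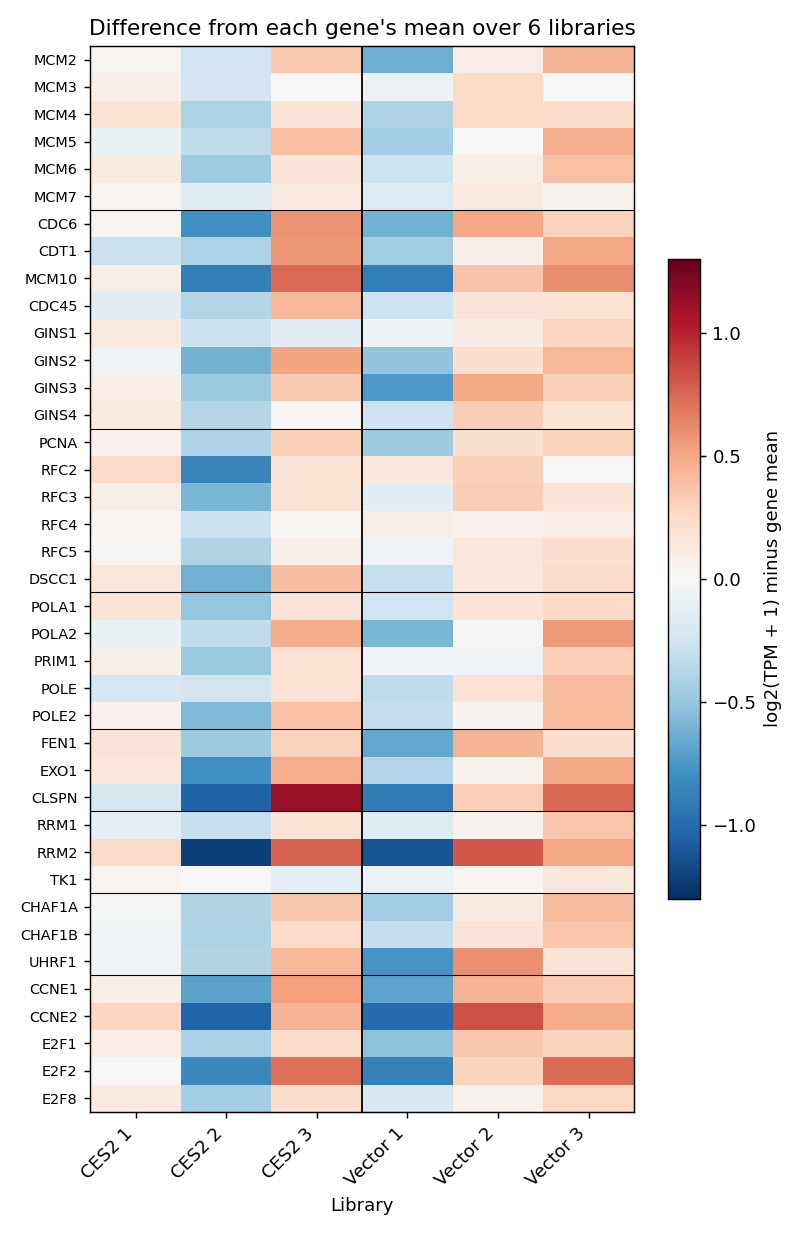
Heat map of the 39 members (rows, in role order) in each library (columns, CES2 left and Vector right); colour gives log2(TPM + 1) minus the gene's mean over the 6 libraries. The columns CES2 2 and Vector 1 are blue in most rows, with RRM2 lowest at -1.21 and -1.12, while TK1 is nearly white.

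None of the 39 members passed the test between CES2 and Vector. By limma over all genes with Benjamini-Hochberg adjustment, 0 of 39 had an adjusted p under 0.05 (0.00819% of all tested genes did) and 0 of 39 an unadjusted p under 0.05 (1.09% of all tested genes), and the smallest unadjusted p was 0.315. The log2 fold change was below 0 in 35 of 39 members, against 63.7% of all tested genes, with a median of -0.094 for members and -0.057 for all tested genes. After median rescaling 24 of 39 were below 0, and the count was 8 without CES2 2, 14 without Vector 3, 22 without Vector 2 and 39 without either Vector 1 or CES2 3, so single libraries decided it. Median rescaling moved each gene up by 0.062 on the log2 scale, to a median of -0.033 for members and 0.0047 for all tested genes, and turned the sign of 11 members (MCM4, MCM5, MCM10, CDC45, GINS3, PCNA, DSCC1, FEN1, TK1, CHAF1A and CCNE1). Quantile normalization turned that of 4 members (MCM7, MCM10, GINS3 and CCNE1). Log2 fold changes ran from -0.30 for RFC2 to 0.074 for MCM2, and each of the 39 intervals held 0. In 33 of the 39 members the 95% interval lay within 1 log2 unit of 0, as it did in 9824 of all 12210 tested genes. The groups failed to overlap in 1 member, RFC4, which was lower in CES2, or 2.56% of members, against 2.63% of all tested genes, and in 0 members in the other direction, against 1.07% of all tested genes.

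**Figure D2:**
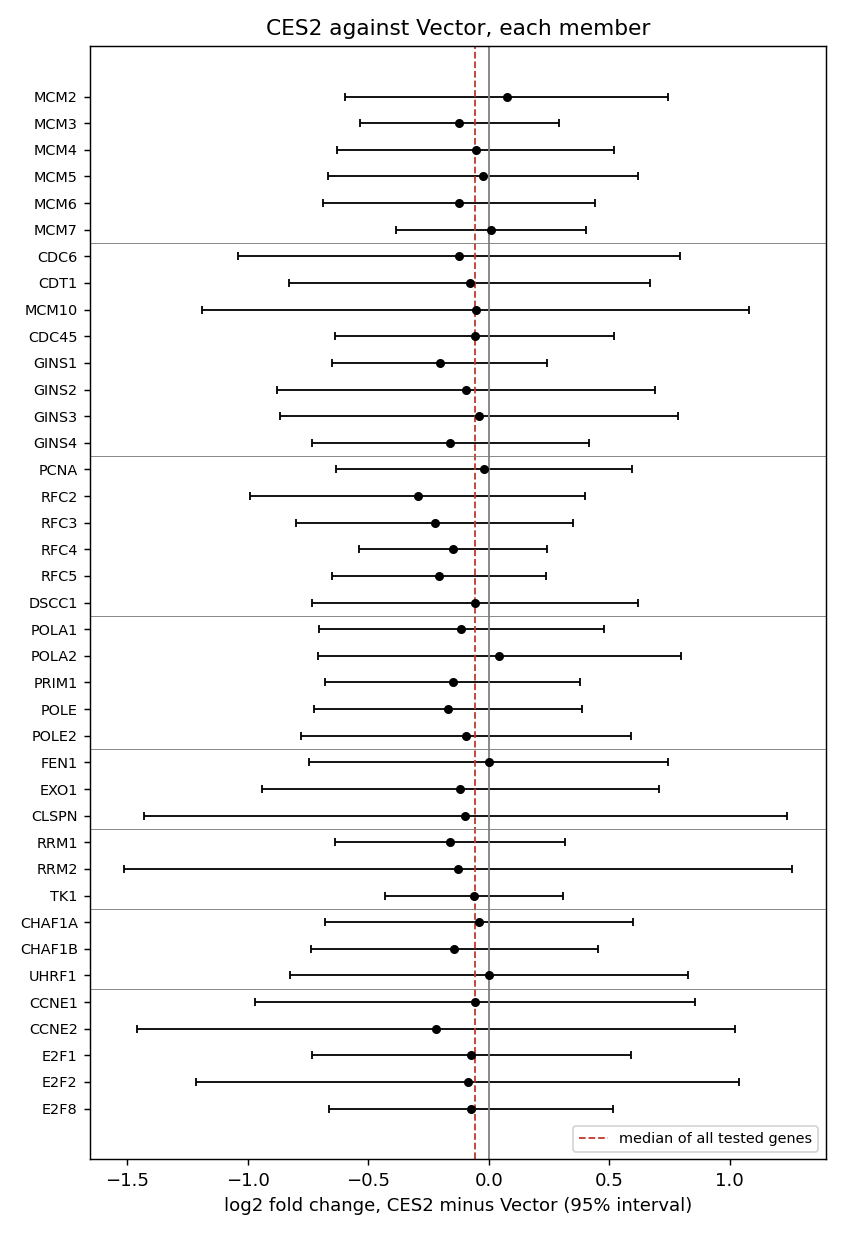
Log2 fold change of CES2 minus Vector for each member (points, on the log2(TPM + 1) scale) with its 95% interval from limma (bars, n = 3 each); the dashed line is the median of all tested genes at -0.057. Each interval spans 0, and the widest belong to RRM2, CLSPN and CCNE2.

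The 6 helicase subunits form 1 ring with each subunit present once, and their RNA was found at unequal levels. MCM7 (ENSG00000166508, chromosome 7 from 100092729 to 100100780, minus strand, GRCh38 as are the positions that follow, 14 exons in the listed transcript) had the highest mean of the 6 genes, at 494, 442 and 532 TPM in CES2 1, 2 and 3, against 431, 527 and 503 TPM in Vector 1, 2 and 3. This was a log2 difference of 0.0077 (SE 0.17) and an interval of -0.39 to 0.40. The groups overlapped, and the highest library was only 1.23 times the lowest. MCM6 had the lowest mean of the 6, at 117, 78.6 and 123 TPM in CES2 1, 2 and 3, against 90.0, 115 and 142 TPM in Vector 1, 2 and 3. The MCM7 to MCM6 ratio within a library, which does not depend on how that library was scaled, was 4.21, 5.62 and 4.34 in CES2 1, 2 and 3, against 4.79, 4.59 and 3.54 in Vector 1, 2 and 3. MCM2 was at 332, 271 and 409.6 TPM in CES2 1, 2 and 3, against 208, 343 and 441 TPM in Vector 1, 2 and 3, the widest spread of the ring at 2.12-fold, with CES2 2 and Vector 1 lowest. MCM3, the helicase gene with the smallest unadjusted p, was at 197, 158 and 189 TPM in CES2 1, 2 and 3, against 179, 225 and 188 TPM in Vector 1, 2 and 3, a log2 difference of -0.12 (SE 0.18, unadjusted p = 0.518, limma adjusted p = 0.9998). MCM5 ranged over 178 to 294 TPM in CES2 and 165 to 313 TPM in Vector, and MCM4 over 207 to 312 TPM in CES2 and 208 to 329 TPM in Vector. The listed MCM4 transcript has 572 bases and covers 11.9% of the gene's span, so the level of MCM4 against other genes is uncertain. All 6 genes had CES2 2 and Vector 1 as the lowest pair.

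Factors that license and fire origins spread 1.49-fold (GINS1) to 3.24-fold (MCM10) between their lowest and highest libraries, against 1.23-fold (MCM7) to 2.12-fold (MCM2) in the ring. MCM10, which helps activate the helicase, was at 36.6, 18.0 and 58.4 TPM in CES2 1, 2 and 3, against 18.0, 45.1 and 53.2 TPM in Vector 1, 2 and 3. Its low libraries were CES2 2 and Vector 1, and the highest was 3.24 times the lowest. CDC6, the loading ATPase, was at 66.4, 36.8 and 97.3 TPM in CES2 1, 2 and 3, against 42.0, 92.3 and 79.7 TPM in Vector 1, 2 and 3, a 2.64-fold spread with the same low libraries. CDT1, the loading partner that is destroyed once S phase begins, had the highest mean of these genes, at 75.8, 69.1 and 137 TPM in CES2 1, 2 and 3, against 67.2, 96.2 and 131 TPM in Vector 1, 2 and 3. This was a log2 difference of -0.079 (SE 0.33), and CES2 3 and Vector 3 were the high libraries. CDC45 lay between 63.9 and 113 TPM in CES2 and between 69.1 and 95.3 TPM in Vector. The MCM7 to CDC45 ratio was 6.49, 6.92 and 4.71 in CES2 1, 2 and 3, against 6.25, 5.59 and 5.27 in Vector 1, 2 and 3.

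The GINS subunits form a complex of 4 proteins. GINS1 was at 61.1, 46.2 and 50.9 TPM in CES2 1, 2 and 3, against 53.7, 60.1 and 68.6 TPM in Vector 1, 2 and 3, a log2 difference of -0.20 (SE 0.19, unadjusted p = 0.323, limma adjusted p = 0.9998). Vector 1 was not among its lowest pair, which was CES2 2 and CES2 3. GINS2 ranged over 34.7 to 77.2 TPM in CES2 and 37.3 to 72.9 TPM in Vector, GINS3 over 26.8 to 48.4 TPM in CES2 and 22.2 to 54.2 TPM in Vector, and GINS4 over 12.3 to 17.9 TPM in CES2 and 13.5 to 20.7 TPM in Vector. GINS4 had the lowest level of the 4 in every library.

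**Figure D3:**
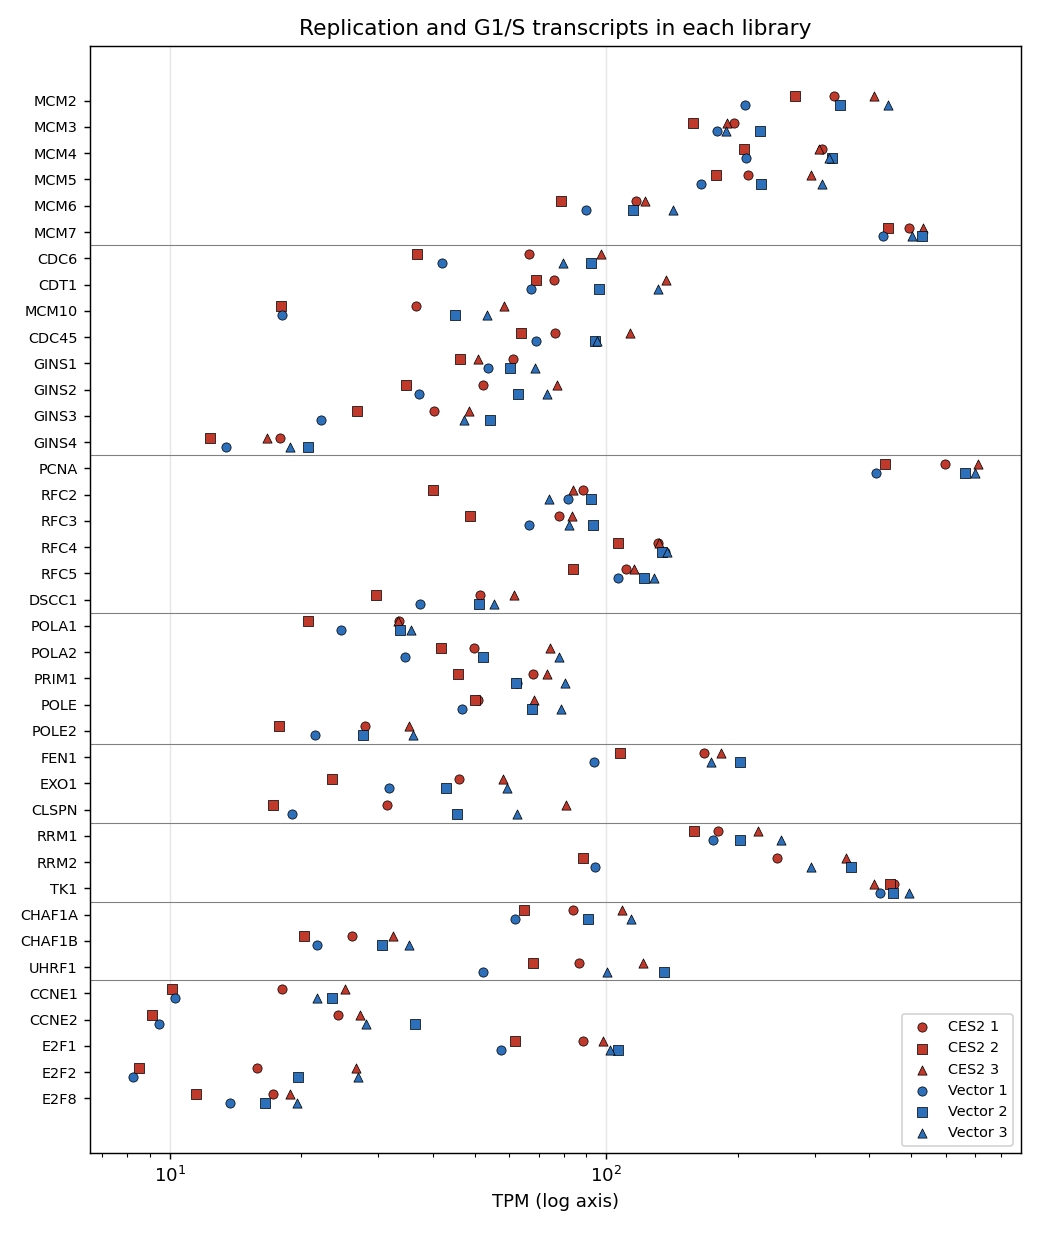
TPM (log axis) of the 39 members in each library, CES2 in red above Vector in blue for each gene, with marker shape for the replicate number; lines part the role groups. CES2 2 and Vector 1 are the lowest points of most rows, and levels run from 8.23 TPM for E2F2 in Vector 1 to 711 TPM for PCNA in CES2 3.

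The sliding clamp PCNA (ENSG00000132646, chromosome 20 from 5114953 to 5120026, minus strand) had the highest mean of all 39 members. It was at 595, 434 and 711 TPM in CES2 1, 2 and 3, against 414, 663 and 699 TPM in Vector 1, 2 and 3, a log2 difference of -0.021 (SE 0.27) and an interval of -0.63 to 0.59. The groups overlapped, with CES2 2 and Vector 1 lowest. The RFC subunits load this clamp. RFC2 and RFC4 were among the 5 members whose lowest pair was not CES2 2 and Vector 1, the others being GINS1, PRIM1 and TK1, whereas RFC3, RFC5 and DSCC1 had that pair lowest. RFC4 (ENSG00000163918, chromosome 3 from 186789880 to 186804724, minus strand) was at 132, 106 and 132 TPM in CES2 1, 2 and 3, against 136, 134 and 137 TPM in Vector 1, 2 and 3, a log2 difference of -0.15 (SE 0.17, unadjusted p = 0.406, limma adjusted p = 0.9998). CES2 1 and CES2 3 lay just under the Vector libraries, and CES2 2 was the lowest. RFC2 was at 88.3, 40.1 and 83.8 TPM in CES2 1, 2 and 3, against 81.7, 92.1 and 73.8 TPM in Vector 1, 2 and 3. Here CES2 2 alone was low, Vector 1 was within the range of the rest, and the log2 difference was -0.30 (SE 0.30). RFC5, the member of this group with the smallest unadjusted p, was at 111, 83.9 and 116 TPM in CES2 1, 2 and 3, against 106, 122 and 128 TPM in Vector 1, 2 and 3, a log2 difference of -0.21 (SE 0.19, unadjusted p = 0.315, limma adjusted p = 0.9998). The listed RFC5 transcript also has 572 bases, which leaves its level against other genes uncertain. RFC3 ranged over 48.6 to 83.5 TPM in CES2 and 66.5 to 93.0 TPM in Vector. DSCC1, part of the alternative loader used for sister chromatid cohesion, ranged over 29.6 to 61.5 TPM in CES2 and 37.4 to 55.4 TPM in Vector.

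PRIM1, the primase that lays down RNA primers, had the highest mean of the 5 polymerase and primase genes, at 67.9, 45.8 and 73.2 TPM in CES2 1, 2 and 3, against 62.6, 62.2 and 80.2 TPM in Vector 1, 2 and 3. That was a log2 difference of -0.15 (SE 0.23), and CES2 2 and Vector 2 were its lowest pair. POLE, the catalytic subunit of the leading strand polymerase, was at 50.8, 50.1 and 68.3 TPM in CES2 1, 2 and 3, against 46.8, 67.5 and 78.6 TPM in Vector 1, 2 and 3, a log2 difference of -0.17 (SE 0.24, unadjusted p = 0.506, limma adjusted p = 0.9998). Its accessory subunit POLE2 ranged over 17.8 to 35.2 TPM in CES2 and 21.6 to 36.0 TPM in Vector. POLA1, the catalytic subunit of the priming polymerase, ranged over 20.7 to 33.5 TPM in CES2 and 24.7 to 35.8 TPM in Vector, and its partner POLA2 over 41.7 to 74.2 TPM in CES2 and 34.5 to 77.9 TPM in Vector. Each of these genes except PRIM1 had CES2 2 and Vector 1 lowest.

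The flap nuclease FEN1, which trims Okazaki fragments, was at 168, 107 and 184 TPM in CES2 1, 2 and 3, against 93.7, 203 and 174 TPM in Vector 1, 2 and 3. The difference was -0.0002 log2 units (SE 0.32), although the libraries themselves spread 2.16-fold. CLSPN, the mediator of the replication checkpoint, had the widest spread of the 39 members, at 31.4, 17.2 and 80.9 TPM in CES2 1, 2 and 3, against 19.0, 45.6 and 62.4 TPM in Vector 1, 2 and 3. The highest library was 4.69 times the lowest, CES2 2 and Vector 1 were low and CES2 3 was highest. Its log2 fold change was -0.10 with an interval of -1.43 to 1.24. EXO1, a nuclease of mismatch repair and end resection, was at 46.0, 23.5 and 58.1 TPM in CES2 1, 2 and 3, against 31.8, 43.0 and 59.4 TPM in Vector 1, 2 and 3, a log2 difference of -0.12 (SE 0.36). The listed EXO1 transcript has 583 bases and covers 5.29% of the gene's span.

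Nucleotide supply held the sharpest contrast between members. RRM2 (ENSG00000171848, chromosome 2 from 10120698 to 10131418, plus strand), the small subunit of ribonucleotide reductase that is made in S phase, was at 246, 88.6 and 353 TPM in CES2 1, 2 and 3, against 94.3, 363 and 294 TPM in Vector 1, 2 and 3. CES2 2 and Vector 1 were both under 100 TPM and the other 4 libraries were at 246 TPM or more. The log2 fold change between groups was -0.13 with an interval of -1.51 to 1.26, the widest of all members. RRM1, the large subunit, was at 181, 159 and 222 TPM in CES2 1, 2 and 3, against 176, 202 and 252 TPM in Vector 1, 2 and 3, a log2 difference of -0.16 (SE 0.21), a 1.59-fold spread. The RRM1 to RRM2 ratio within a library was 0.735, 1.79 and 0.629 in CES2 1, 2 and 3, against 1.87, 0.556 and 0.858 in Vector 1, 2 and 3. It was above 1 in CES2 2 and Vector 1 and below 1 elsewhere, though its place against 1 depends on the transcript lengths used for scaling. TK1 (ENSG00000167900, chromosome 17 from 78174075 to 78187233, minus strand), the salvage kinase for thymidine, was the steadiest member, at 457, 445 and 409 TPM in CES2 1, 2 and 3, against 424, 453 and 493 TPM in Vector 1, 2 and 3. The highest TK1 library was 1.20 times the lowest, and the TK1 to RRM2 ratio was 1.86, 5.02 and 1.16 in CES2 1, 2 and 3, against 4.49, 1.25 and 1.68 in Vector 1, 2 and 3. The difference in TK1 was -0.061 log2 units with an interval of -0.43 to 0.31, the narrowest of the 39.

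Chromatin assembly genes followed the shared pattern. UHRF1, which guides DNA methylation to newly made strands, was at 86.7, 68.1 and 121 TPM in CES2 1, 2 and 3, against 52.2, 136 and 100.5 TPM in Vector 1, 2 and 3, a log2 fold change of 0.002 with an interval of -0.82 to 0.83. CHAF1B, a subunit of the histone chaperone CAF-1, was at 26.2, 20.3 and 32.4 TPM in CES2 1, 2 and 3, against 21.8, 30.6 and 35.3 TPM in Vector 1, 2 and 3, a log2 difference of -0.14 (SE 0.26). CHAF1A, the large subunit, ranged over 64.7 to 109 TPM in CES2 and 61.9 to 114 TPM in Vector. The CHAF1A to CHAF1B ratio stayed between 3.19 and 3.35 in CES2 and between 2.85 and 3.23 in Vector, while CHAF1A spread 1.84-fold and CHAF1B 1.74-fold.

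Of the cyclin E and E2F genes none of the 5 passed the test between groups. Their spread between the lowest and highest library ran from 1.70-fold (E2F8) to 3.995-fold (CCNE2), against a median of 1.79-fold over all tested genes. CCNE2, 1 of the cyclins that activate CDK2 at the start of S phase, was at 24.3, 9.10 and 27.3 TPM in CES2 1, 2 and 3, against 9.43, 36.4 and 28.2 TPM in Vector 1, 2 and 3. That was a log2 difference of -0.22 (SE 0.54) and an interval of -1.46 to 1.02, and the highest library was 3.995 times the lowest. CCNE1 ranged over 10.1 to 25.2 TPM in CES2 and 10.3 to 23.5 TPM in Vector, a 2.49-fold spread. In both genes CES2 2 and Vector 1 were the lowest pair. E2F1, an activating E2F, was at 88.3, 61.8 and 98.3 TPM in CES2 1, 2 and 3, against 57.3, 107 and 102 TPM in Vector 1, 2 and 3, a log2 difference of -0.072 (SE 0.29). E2F2, another activator, ranged over 8.49 to 26.7 TPM in CES2 and 8.23 to 26.9 TPM in Vector, a 3.27-fold spread. E2F8, a repressor of E2F targets, ranged over 11.5 to 18.9 TPM in CES2 and 13.7 to 19.5 TPM in Vector, a 1.70-fold spread.

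Wider lists, drawn from general knowledge, gave values for the rest of the pathway. An unadjusted p under 0.05 was found for 2 of the 47 other replication factors, RNASEH2C and RBBP4, and for 0 genes of the 4 other lists, against 1.09% of all tested genes, and neither gene passed the adjusted test. Of 47 other replication factors 0 were called, with 34 below 0 and a median log2 fold change of -0.064. The factors with the smallest unadjusted p were RNASEH2C, RBBP4 and NASP. RNASEH2C, a subunit of the nuclease that removes ribonucleotides from DNA, was at 47.6, 48.0 and 40.4 TPM in CES2 1, 2 and 3, against 31.0, 32.7 and 29.6 TPM in Vector 1, 2 and 3, a log2 difference of 0.53 (SE 0.18, unadjusted p = 0.0189, limma adjusted p = 0.9998). RBBP4, a histone-binding subunit of CAF-1 among other complexes, was at 44.5, 41.7 and 45.8 TPM in CES2 1, 2 and 3, against 77.5, 52.3 and 71.5 TPM in Vector 1, 2 and 3, a log2 difference of -0.58 (SE 0.20, unadjusted p = 0.0207, limma adjusted p = 0.9998). NASP, a histone chaperone, was at 197, 232 and 197 TPM in CES2 1, 2 and 3, against 236, 292 and 299.7 TPM in Vector 1, 2 and 3, a log2 difference of -0.40 (SE 0.18, limma adjusted p = 0.9998). The groups did not overlap in these 3 genes. RNASEH2C, 1 of 47, was higher in CES2, as were 1.07% of all tested genes, and RBBP4 and NASP, 2 of 47, were lower, as were 2.63% of all tested genes. POLD2 and SSRP1 had the highest means of the list, with log2 fold changes of 0.074 and 0.045. CES2 2 and Vector 1 were the lowest pair in 23 of the 47 (48.9%).

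In nucleotide synthesis 0 of 12 genes were called, and CES2 2 and Vector 1 were the lowest pair in 11 of 12 (91.7%). TYMS, which makes thymidylate, was at 146, 127 and 223 TPM in CES2 1, 2 and 3, against 112, 189 and 204 TPM in Vector 1, 2 and 3. IMPDH2, of guanine nucleotide synthesis, ranged over 326 to 420.0 TPM in CES2 and 340.1 to 415 TPM in Vector. SAMHD1 and UMPS, named by the rule on small p, had log2 fold changes of -0.45 and -0.38, and overlapping groups. SAMHD1 is in this list although it breaks deoxynucleotides down.

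Among 37 G1/S regulators 0 were called and 21 were below 0, with a median log2 fold change of -0.021. CES2 2 and Vector 1 were the lowest pair in 16 of the 37 (43.2%), against 20.6% of all tested genes. The smallest unadjusted p belonged to MYC, TFDP2 and FBXW7. MYC, the growth transcription factor, was at 8.37, 10.9 and 16.9 TPM in CES2 1, 2 and 3, against 12.3, 18.0 and 54.3 TPM in Vector 1, 2 and 3, a log2 difference of -0.94 (SE 0.50, unadjusted p = 0.0992, limma adjusted p = 0.9998), and its Vector mean was drawn up by Vector 3. TFDP2 and FBXW7 had log2 fold changes of -0.45 and -0.37. CKS2 and CKS1B, small partners of the kinases, had the highest means, with log2 fold changes of 0.0098 and -0.078. In 5 of the 37 regulators CES2 2 and Vector 1 were the highest pair (13.5%, against 17.1% of all tested genes and 0 of the 39 members), and these 5, named after their values were seen, were CDKN1A, CDKN2B, CDKN2D, RBL2 and CKS2. CDKN1A, which encodes p21, was at 32.8, 44.3 and 22.7 TPM in CES2 1, 2 and 3, against 56.8, 22.4 and 17.6 TPM in Vector 1, 2 and 3. CDKN2D, an inhibitor of CDK4 and CDK6, was at 25.4, 36.4 and 10.9 TPM in CES2 1, 2 and 3, against 33.6, 16.2 and 13.5 TPM in Vector 1, 2 and 3. CDKN2B, an inhibitor of the same kinases, was at 8.36, 10.1 and 6.71 TPM in CES2 1, 2 and 3, against 10.5, 3.97 and 7.36 TPM in Vector 1, 2 and 3. RBL2, an RB family protein that holds back E2F targets outside the cycle, was at 54.6, 63.9 and 29.6 TPM in CES2 1, 2 and 3, against 84.5, 37.8 and 53.1 TPM in Vector 1, 2 and 3. CKS2 was at 447, 478 and 286 TPM in CES2 1, 2 and 3, against 491, 381 and 319 TPM in Vector 1, 2 and 3. These 5 genes were picked for that order of libraries, and other genes of the same families did not share it. RBL1, also of the RB family, had CES2 2 and Vector 1 as its lowest pair, RB1 had CES2 2 and CES2 3 lowest, and neither CDKN1B, CDKN1C, CDKN2A nor CDKN2C had CES2 2 and Vector 1 as the highest pair.

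Of 30 mitotic genes 0 were called, 15 were below 0 and the median log2 fold change was 6.8e-04. CES2 2 and Vector 1 were the lowest pair in 11 of 30 (36.7%). The list's median relative to gene means was -0.012, -0.12 and 0.12 in CES2 1, 2 and 3, against -0.018, -0.065 and 0.14 in Vector 1, 2 and 3. AURKA, a spindle kinase, was at 246, 220.5 and 174 TPM in CES2 1, 2 and 3, against 165, 157 and 157 TPM in Vector 1, 2 and 3, a log2 difference of 0.40 (SE 0.18, unadjusted p = 0.0586, limma adjusted p = 0.9998), and the groups did not overlap. It was the 1 gene of the 30 that was higher in CES2 without overlap, as were 1.07% of all tested genes. NEK2 and CDK1 followed by unadjusted p, with log2 fold changes of -0.17 and -0.13. CDC20 and UBE2C had the highest means, with log2 fold changes of 0.041 and 0.11.

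Replication-dependent histone genes, which have many near-identical copies and so uncertain single values, had 0 of 49 called, with 35 above 0 and a median log2 fold change of 0.16. Their median relative to gene means was -0.12, -0.16 and 0.35 in CES2 1, 2 and 3, against -0.47, -0.22 and 0.48 in Vector 1, 2 and 3. CES2 3 and Vector 3 were the high libraries, and CES2 2 and Vector 1 were the lowest pair in 16 of 49 (32.7%). HIST1H3C, HIST3H3 and HIST1H3F had the smallest unadjusted p, with log2 fold changes of 0.95, -0.84 and 0.49. HIST1H2BK, 1 of the pair with the highest means, was at 112, 94.2 and 147 TPM in CES2 1, 2 and 3, against 58.0, 131 and 119 TPM in Vector 1, 2 and 3.

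**Figure D4:**
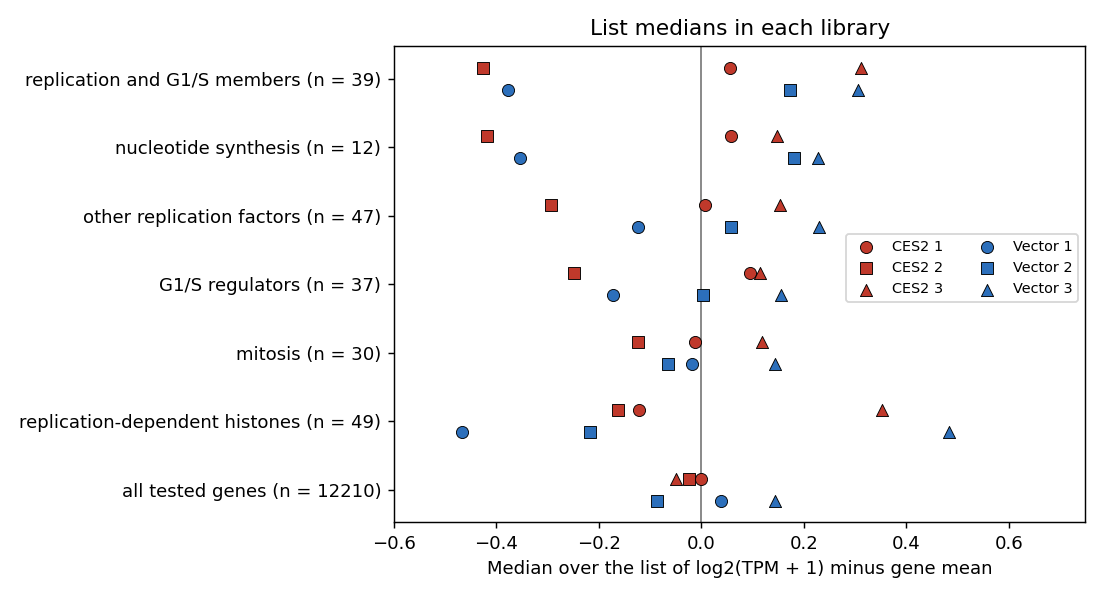
Median over each list of log2(TPM + 1) minus the gene's mean over the 6 libraries (x axis), 1 point per library, CES2 in red above Vector in blue. For the 39 members CES2 2 and Vector 1 lie at -0.43 and -0.38 and the other libraries above 0. These libraries lie at -0.42 and -0.35 for nucleotide synthesis and at -0.29 and -0.12 for other replication factors. For G1/S regulators they lie at -0.25 and -0.17, and for histones at -0.16 and -0.47. Medians of mitotic genes and of all tested genes lie within 0.15 of 0 in every library.

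Markers of other cell types also differed between libraries. COL1A1, the fibroblast marker with an entry, was at 6.26, 10.5 and 3.89 TPM in CES2 1, 2 and 3, against 9.36, 4.49 and 6.54 TPM in Vector 1, 2 and 3. CDH5, an endothelial marker, was at 13.7, 8.75 and 19.6 TPM in CES2 1, 2 and 3, against 8.25, 25.3 and 20.9 TPM in Vector 1, 2 and 3, lowest in CES2 2 and Vector 1. The other endothelial markers did not share that order. PECAM1 was at 0.290, 0.549 and 0.206 TPM in CES2 1, 2 and 3. In Vector 1, 2 and 3 PECAM1 was at 0.419, 0.128 and 0.132 TPM, so it was highest in CES2 2 and Vector 1. VWF was at 0.764, 1.87 and 0.679 TPM in CES2 1, 2 and 3. In Vector 1, 2 and 3 VWF was at 1.51, 0.382 and 1.60 TPM. CD68, a macrophage marker, was at 8.27, 7.13 and 5.47 TPM in CES2 1, 2 and 3, against 11.6, 7.73 and 5.52 TPM in Vector 1, 2 and 3. CD14, a monocyte marker, stayed under 1 TPM in every library. Their part in the pattern was not tested.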

How the data were processed

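RNA of 6 Cal33 libraries was analysed. The values deposited by the authors are TPM, 1 row per gene with 1 listed transcript. The header names no unit, and TPM was inferred from column sums of 999804 to 999893. Tools listed by the submitters' processing notes, without roles, are edgeR 3.0.8, StringTie 1.3.3 and HISAT2 2.1.0, with builds hg38 and GRCh38. For annotation, filters and strand handling the sources used here give nothing, so reads of antisense or overlapping genes may not be told apart. TPM keeps no depth, hence no counting interval is given, and a few abundant transcripts shift all others. Blanks (73 to 279 entries a library) were read as 0, and no member was blank.

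A gene was tested if 3 or more libraries reached 1 TPM (12210 genes). The groups were contrasted, CES2 minus Vector, with limma 3.58.1 (R 4.3.3) on log2(TPM + 1), with intensity trend, empirical Bayes moderation and group as the only term, and Benjamini-Hochberg adjustment over all genes at 0.05. Fold changes on this scale understate the change of low genes. The script was tested on simulated data. Coordinates are those of the deposited table (GRCh38), which matched GENCODE release 29 for the transcripts of all 39 members. In that release 37 of the listed transcripts are protein coding. Those of RRM1 and PRIM1 are of the nonsense-mediated decay class, which leaves the levels of these genes against others uncertain. Promoters are from RefSeq. Python 3.11.15 with pandas 2.3.3, scipy 1.17.1 and matplotlib 3.10.9 was used.

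Members and lists were chosen with earlier results of these data known. In each role group the member with the highest mean, the member with the smallest unadjusted p and any member whose groups did not overlap are given per library, and from each wider list the 3 genes with the smallest p and the 2 with the highest means. A result under this rule is not reported here. MCM2, RFC2, RRM2, CLSPN and other genes given per library outside this rule were chosen after their values were seen. Alternatives covered scaling, pseudocounts, filters, limma settings, library weights, the replicate number as a block and each library left out.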

Additional observations from a re-analysis of the deposited data

How the results depend on the processing

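Under all 16 alternatives 0 of 39 members and 0 genes of the wider lists passed, and the lowest adjusted p of a member in any of them was 0.945, with library weights. CES2 passed in each, with log2 fold changes of 5.54 to 5.78 when 1 library was left out. The count of genes called was 4 with library weights, 1 to 2 with 1 library left out (2 without CES2 3) and 2 without Vector 1 and CES2 2 together, an alternative chosen after seeing the data, against 1. The library weights were 6.86 for CES2 1 and 0.513 to 1.12 for the others, so results with library weights rest largely on CES2 1. The members' median log2 fold change was -0.29 without Vector 1 and 0.14 without CES2 2, the lowest and highest with 1 library left out, and the count of members below 0 ran over 8 to 39 (8 without CES2 2, 14 without Vector 3, 22 without Vector 2, 39 without Vector 1 or CES2 3), so both values are decided by single libraries. Without Vector 1 and CES2 2 together the median was -0.091 with 35 below 0.

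Of 336 values of 21 members 50 changed sign and 0 became significant. With 1 library left out the log2 fold change crossed 0 for MCM2 (-0.23 to 0.31), MCM7 (-0.077 to 0.079), CDT1 (-0.38 to 0.16), PCNA (-0.26 to 0.17), RFC2 (-0.49 to 0.065), PRIM1 (-0.28 to 0.055), FEN1 (-0.33 to 0.23), EXO1 (-0.38 to 0.25), CLSPN (-0.68 to 0.40), RRM2 (-0.72 to 0.45), CHAF1B (-0.34 to 0.023), UHRF1 (-0.38 to 0.30), CCNE2 (-0.77 to 0.25), E2F1 (-0.36 to 0.12), and did not for MCM3 (-0.19 to -0.025), GINS1 (-0.31 to -0.12), RFC4 (-0.20 to -0.046), RFC5 (-0.29 to -0.063), POLE (-0.38 to -0.010), RRM1 (-0.29 to -0.023), TK1 (-0.11 to -0.004). Signs also turned under median rescaling for PCNA (0.041), FEN1 (0.061) and TK1 (8.5e-04). They turned under quantile normalization for MCM7 (-0.048), and for FEN1 under pseudocounts of 0.1 (6.5e-05) and 0.01 (9.2e-05). With library weights they turned for MCM2 (-0.034), RFC2 (0.035), FEN1 (0.090), RRM2 (0.021), UHRF1 (-0.054) and CCNE2 (0.0066). Without Vector 1 and CES2 2 together they turned for MCM2 (-0.077), MCM7 (-0.0061), RFC2 (0.061), EXO1 (0.033) and UHRF1 (-0.19). The cause was not tested.

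The replicate number as a block gave a count of 1 gene called, 0 members and a member median of -0.094, and changed no call. The numbers are not said to pair libraries, and deviations from group means correlated at 0.15, -0.52 and 0.37 for numbers 1, 2 and 3, while CES2 2 correlated best with Vector 1 (0.68). TPM gives no depth, so precision rests on 3 libraries a group.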

Other observations

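HIST1H4C was at 339.6 TPM in CES2 3 and 262 TPM in Vector 3, while the other 4 libraries lay between 0.377 and 1.17 TPM. Its mean, the second highest of the 49 tested histone genes after HIST1H2BK, came from those 2 libraries. The log2 difference between groups was 0.0035 (SE 2.48).

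Over all 12210 tested genes on the TPM scale, the most frequent lowest pair of libraries was CES2 3 and Vector 2 (25.2% of genes), followed by CES2 2 and Vector 1 (20.6%). That order depended on scaling. CES2 2 and Vector 1 came first after median rescaling (19.8%, against 16.9% for CES2 3 and Vector 2). The same held after quantile normalization (21.6% against 15.7%). Each of these pairs holds 1 library of each group. Of the 39 members 0 had CES2 3 and Vector 2 as the lowest pair.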
